A study of Bos taurus with 8 samples.

Results

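Nuclear factor I (NFI) and nuclear factor of activated T cells (NFAT) genes encode families of DNA-binding transcription factors. The set described here is defined by gene symbol and holds 9 of the 24596 genes counted. It comprises 4 NFI genes (*NFIA*, *NFIB*, *NFIC* and *NFIX*) and 5 NFAT genes (*NFATC1*, *NFATC2*, *NFATC3*, *NFATC4* and *NFAT5*), each with 1 Ensembl identifier. Wild Type bovine chondrocytes were obtained from the knees of calves of 1 to 2 weeks of age, from the superficial zone of the articular cartilage (SZCs) and from its deep zone (DZCs). The middle layer between these slices was discarded. Cells of both zones were kept for 3 days in serum-containing medium before RNA-Seq, with 2 libraries per zone and no other treatment. The methods call the libraries biological duplicates, but neither they nor the labels say which animals gave which library, so the tests measure the spread between these libraries. The methods describe no sort of the cells, so in these bulk samples a lower transcript level cannot be told apart from a smaller share of expressing cells.

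NFI proteins bind a palindromic DNA element as dimers through a conserved amino-terminal domain, and they are known for timing differentiation in lung, brain, muscle and tooth. The 4 NFATC proteins are held in the cytoplasm in a phosphorylated state. When calcium rises, calmodulin activates the phosphatase calcineurin, which removes these phosphates, and the NFATC proteins enter the nucleus until kinases send them out again. *NFAT5* lacks the calcineurin docking region and is known as the regulator of the response to high salt and osmotic load, a condition under which chondrocytes live in cartilage. RNA-Seq measures the transcripts of these genes only, and says nothing of phosphorylation or of the place of the proteins in the cell.

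Library totals lay between 19918970 and 21890549 counts. All 6 superficial zone markers listed (*PRG4*, *CREB5*, *VIT*, *THBS4*, *EPHA3* and *WIF1*) were called higher in SZCs, and all 8 chondrocyte markers, among them *COL2A1*, *ACAN* and *SOX9*, were detected in every library. Of these 8, *MATN3* was called higher in DZCs (edgeR FDR 0.00212). Their median log2 fold change was -1.11 with 0 of 8 above 0. It was -0.37 with 3 of 8 above 0 without DZC replicate 1, and -1.46 with 0 of 8 without DZC replicate 2. They summed to 120684 and 123310 CPM in SZCs and to 485945 and 188466 CPM in DZCs, and their part in the differences of the members was not tested. DZC replicate 1 stood apart in several measures. It had 14683 genes with a count, against 15842 to 16058 in the other libraries, and its scaling factor by the trimmed mean of *M* values (TMM) was 0.735, against 1.08 to 1.14. *COL2A1* took 24.5% of its counts. The median gap between replicates over the 12712 genes counted in every library was 0.56 on the log2 scale in DZCs and 0.24 in SZCs. DZC replicate 2 stood apart in hypertrophic and osteoblast markers, with 468 counts of *MMP13*, 445 of *ALPL*, 268 of *IBSP*, 221 of *COL10A1* and 140 of *SP7*, against 0 to 23 counts of each in the other libraries. Results for the members are also given without a DZC library where leaving it out changes them.

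To ask which family members differ between the zones, the counts of all 12857 genes that passed the filter were compared by the exact test of edgeR, with Benjamini–Hochberg adjustment (FDR) over all of them. All 9 members passed the filter, with 32 to 3381 counts per library. *NFIB* and *NFATC2* were called higher in SZCs at an FDR below 0.05, and 0 members were called higher in DZCs. Over all genes tested, 2.93% were called, 2.23% as higher in SZCs and 0.7% as higher in DZCs. The 9 fitted log2 fold changes of SZCs over DZCs were all above 0, against 46.6% of all genes tested, but 3 of them fell below 0 when DZC replicate 1 was left out and 1 when SZC replicate 2 was. At an unadjusted p below 0.05 there were 3 members (*NFIA*, *NFIB* and *NFATC2*), all higher in SZCs, against 9.09% of all genes and 6.08% in that direction. Both SZC libraries lay above both DZC libraries for 5 members, which was the case for 21% of all genes tested (20.5% for the reverse order, with 0 members). These 5 were the 4 NFI genes and *NFATC2*.

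**Figure D1:**
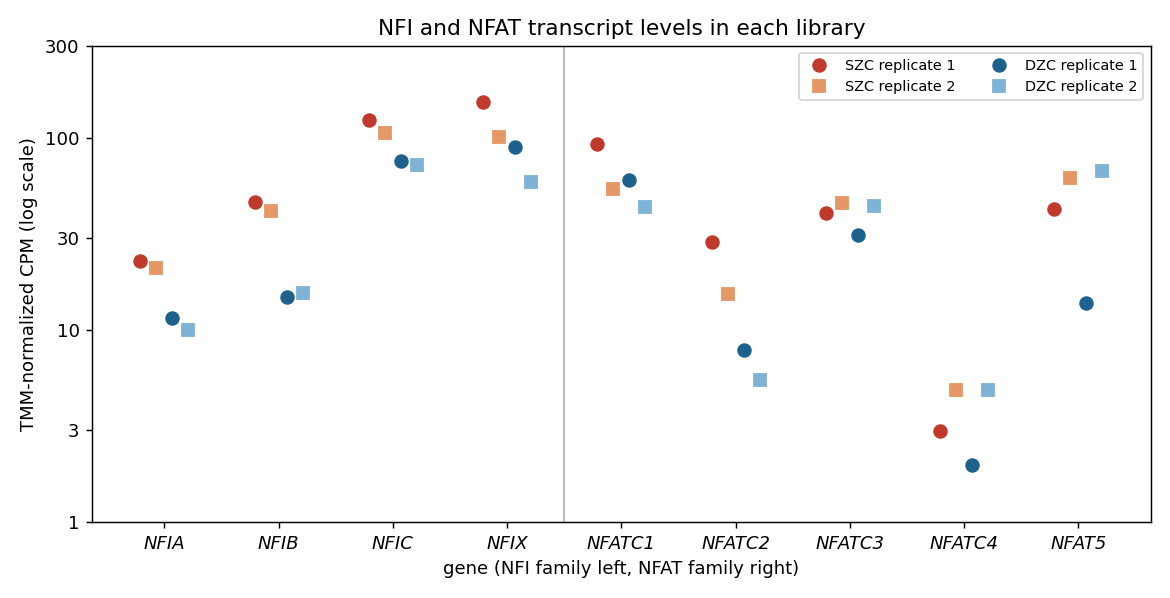
TMM-normalized CPM (log scale) of each member in each of the 4 libraries, 1 point per library. The SZC and DZC points separate for the 4 NFI genes and *NFATC2* and overlap for the other 4 NFAT genes. Heights of different genes are not comparable, since counts were not divided by transcript length.

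*NFIB*, known for its role in lung and brain maturation, was counted 1020 and 967 times in SZC replicates 1 and 2 against 239 and 347 times in DZC replicates 1 and 2. As CPM, counts scaled to library size with the TMM factor, these were 46.3 and 41.7 CPM in SZCs and 14.9 and 15.6 CPM in DZCs. The replicates of each zone were close together, and the zones were far apart. Mean levels were 44.0 ± 3.31 CPM in SZCs against 15.2 ± 0.485 CPM in DZCs (SD, n = 2 each). The zone difference was 1.53 ± 0.34 on the log2 scale (standard error, edgeR FDR 0.00121), or 2.89-fold. By unadjusted p-value *NFIB* ranked 136 among the 12857 genes. Its log2 fold change, refitted after leaving out any single library, stayed between 1.45 and 1.61. The call was lost without SZC replicate 1 (edgeR FDR 0.84) and without SZC replicate 2 (FDR 0.359), where the spread has to be taken from the DZC pair alone. It was also lost in edgeR's quasi-likelihood test without a replicate block (FDR 0.162).

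*NFIA*, which acts with *NFIB* in glial development, showed the next largest difference of its family. It was at 22.9 and 20.9 CPM in SZCs and at 11.6 and 10.0 CPM in DZCs, so every SZC value was above every DZC value. The fitted difference of 1.02 ± 0.38 (log2, standard error) had an unadjusted p of 0.00899 in edgeR and an FDR of 0.181. It did not pass with all 4 libraries. It passed without DZC replicate 1 (FDR 0.0185) and without DZC replicate 2 (FDR 0.0315), where the SZC pair alone sets the spread and 6.67% and 20.7% of all genes were called. Without SZC replicate 1 or SZC replicate 2 its edgeR FDR was 1.

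*NFIC*, required for tooth root formation in mice, was at 124 and 106 CPM in SZCs and 76.0 and 71.7 CPM in DZCs. The values did not overlap, but the difference of 0.64 ± 0.34 (log2, standard error) had an edgeR FDR of 0.615. *NFIX*, a regulator of fetal muscle genes, was at 154 and 101 CPM in SZCs and at 89.4 and 58.7 CPM in DZCs. In both zones replicate 1 was the higher library of this gene, and the lower SZC value lay just above the higher DZC value. The difference was 0.78 ± 0.42 (log2, standard error, edgeR FDR 0.619). It was 0.45 without SZC replicate 1, 1.05 without SZC replicate 2, 1.12 without DZC replicate 1 and 0.53 without DZC replicate 2.

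The 4 NFI genes together had a median log2 fold change of 0.90, with a range from 0.64 to 1.53, against a median of -0.04 over all genes tested. It lay between 0.73 and 1.13 with any 1 library left out. Of the 4, 1 passed the FDR threshold. The summed level of the family was 347 and 270 CPM in SZCs and 192 and 156 CPM in DZCs. The differences of *NFIA*, *NFIC* and *NFIX* were not larger than the replicate spread allows to call with 2 libraries per zone and adjustment over all genes.

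**Figure D2:**
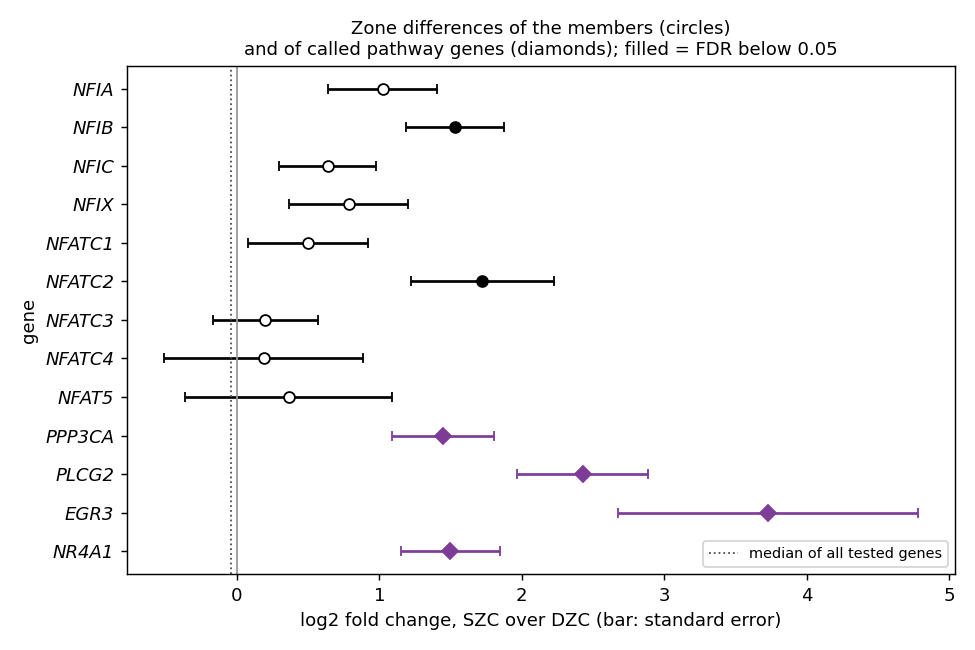
Log2 fold change of SZCs over DZCs with its standard error for the 9 members (circles) and for the pathway genes called (diamonds). Filled symbols passed an FDR of 0.05 in the exact test of edgeR, and the dotted line marks the median of all genes tested, -0.04. *NFIB* at 1.53 and *NFATC2* at 1.72 are the filled circles.

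*NFATC2*, the calcineurin-regulated factor best known from T cells, was counted 631 and 357 times in SZC replicates 1 and 2, and 127 and 122 times in their DZC counterparts. This corresponded to 28.7 and 15.4 CPM in SZCs and 7.90 and 5.47 CPM in DZCs. The lower SZC library was still above the higher DZC library, although SZC replicate 2 was at a log2 ratio of -0.90 to SZC replicate 1. Mean levels were 22.0 ± 9.39 CPM against 6.68 ± 1.72 CPM (SD, n = 2 each). The zone difference was 1.72 ± 0.50 on the log2 scale (standard error, edgeR FDR 0.0333), or 3.30-fold. It was the largest of the 9 members with all 4 libraries, but not without SZC replicate 1 or without DZC replicate 2. It was 1.20 without SZC replicate 1 (edgeR FDR 1) and 2.10 without SZC replicate 2 (FDR 0.171), and the call was lost in both cases, as it was in edgeR's quasi-likelihood test without a replicate block (FDR 0.306). The zone difference was 2.01 without DZC replicate 1 and 1.49 without DZC replicate 2, fits in which the SZC pair alone sets the spread.

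*NFATC1*, which drives osteoclast formation and heart valve development, was at 92.4 and 54.0 CPM in SZCs and 60.0 and 43.4 CPM in DZCs. Its zones overlapped, since DZC replicate 1 was above SZC replicate 2. The difference of 0.50 ± 0.42 (log2, standard error) had an edgeR FDR of 0.914, and it ranged from 0.06 without SZC replicate 1 to 0.83 without SZC replicate 2. *NFATC3*, broadly expressed in muscle and lymphoid cells, was at 40.7 and 46.0 CPM in SZCs and 31.0 and 44.3 CPM in DZCs. Only DZC replicate 1 was lower than the other 3 libraries by a clear margin. The difference was 0.20 ± 0.37 (log2, standard error, edgeR FDR 1) and -0.028 without DZC replicate 1. *NFATC4*, studied mainly in neurons and heart, had the lowest counts of the set, with 66 and 113 in SZCs and 32 and 109 in DZCs. The values were 3.0 and 4.87 CPM in SZCs and 1.99 and 4.89 CPM in DZCs, and in each zone replicate 2 was the higher. The fitted difference was 0.19 ± 0.70 (log2, standard error, edgeR FDR 1). It was below 0 without DZC replicate 1 (-0.31) and without SZC replicate 2 (-0.20). With 2 libraries per zone no zone difference could be detected for *NFATC1*, *NFATC3* or *NFATC4*.

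*NFAT5*, the osmotic response factor, had 933 and 1433 counts in SZCs and 222 and 1497 counts in DZCs. Its level was 42.4 and 61.7 CPM in SZCs, 13.8 CPM in DZC replicate 1 and 67.1 CPM in DZC replicate 2. The DZC libraries thus held both the lowest and the highest value of this gene. They differed 4.86-fold, a gap larger than that of 94.4% of the genes counted in every library. The fitted difference was 0.36 ± 0.73 (log2, standard error, edgeR FDR 1), and its biological coefficient of variation of 0.502 was the largest of the set, against 0.233 for *NFIB*. Without DZC replicate 1 the log2 fold change was -0.36, and without DZC replicate 2 it was 1.93. The direction of the zone difference of *NFAT5* was therefore set by which DZC library was used. Of its listed osmotic target genes, 3 of 4 in the count table were tested and 0 were called. *AKR1B1*, the aldose reductase that makes sorbitol, was at 3.59 and 10.7 CPM in SZCs and 3.73 and 15.9 CPM in DZCs. *SLC6A6*, the taurine transporter, was at 1.64 and 1.59 CPM in SZCs and 0.498 and 5.56 CPM in DZCs. *SLC6A12*, the betaine transporter, had 0.498 CPM in DZC replicate 1 and 0.179 CPM in DZC replicate 2. *HSPA4L*, a heat shock protein gene, had 0.182 and 0.948 CPM in SZCs and 0 and 0.807 CPM in DZCs. DZC replicate 2, the highest library for *NFAT5*, was the highest for *AKR1B1* and *SLC6A6* but not for *HSPA4L* or *SLC6A12*. The part of the differences between the DZC libraries in these values was not tested.

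The 5 NFAT genes together had a median log2 fold change of 0.36, with a range from 0.19 to 1.72, and 1 of them passed. Without DZC replicate 1 the median was -0.028, with a range from -0.36 to 2.01 and 2 of 5 values above 0, while it was 0.11 without SZC replicate 2 and 1.00 without DZC replicate 2. Their summed level was 207 and 182 CPM in SZCs and 115 and 165 CPM in DZCs, with DZC replicate 1 the lowest.

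**Figure D3:**
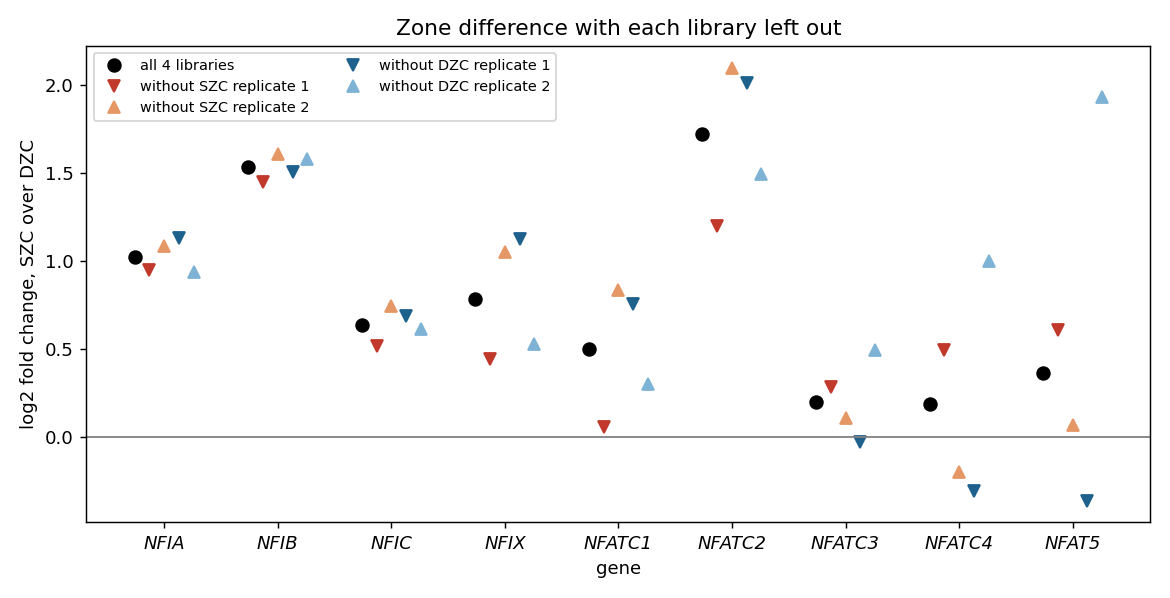
Log2 fold change of SZCs over DZCs for each member fitted to all 4 libraries and to each set of 3. *NFIB* stays between 1.45 and 1.61, while *NFAT5* runs from -0.36 without DZC replicate 1 to 1.93 without DZC replicate 2.

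The choice of scaling does not enter a ratio of members within the same library, and such ratios were compared across both families. The log2 ratio of *NFIB* to *NFIA* counts was 1.01 and 0.99 in SZCs, against 0.36 and 0.63 in DZCs. Against the summed counts of the other NFI genes, the log2 ratio of *NFIB* was -2.70 and -2.45 in SZCs and -3.57 and -3.17 in DZCs. The mean ratio was thus higher in SZCs by 0.80 on the log2 scale, with SDs of 0.17 in SZCs and 0.28 in DZCs (n = 2). The log2 ratio of *NFATC2* to *NFATC1* was -1.69 and -1.81 in SZCs and -2.93 and -2.99 in DZCs. Its mean was -1.75 ± 0.09 (SD, n = 2) in SZCs and -2.96 ± 0.04 (SD, n = 2) in DZCs, a difference of 1.21, which stayed between 1.15 and 1.27 when any 1 library was left out. Against the other 4 NFAT genes together the mean log2 ratio of *NFATC2* was higher in SZCs by 1.28, and this ran from 0.72 to 1.83 with 1 library left out. Against *NFATC1*, *NFATC3* and *NFATC4* it was higher by 1.31, running from 1.05 to 1.57. The ratio to *NFATC1* varied less between replicates than the level of either gene, and both genes were higher in replicate 1 of each zone. In each of these ratios the zones did not overlap, and the two-sided exact permutation p was 0.33, the lowest that 2 against 2 libraries can reach (0.481 after Benjamini–Hochberg adjustment over 13 distinct ratios). The zones also did not overlap, at the same p, for *NFIA* against the other NFI genes (difference 0.22). Nor did they, at that p but in the opposite direction, for *NFIC* against the other NFI genes (-0.32) and *NFATC3* against the other NFAT genes (-0.36). With 1 library left out, these differences ran from 0.092 to 0.340, from -0.504 to -0.129 and from -0.594 to -0.125. The log2 ratio of *NFAT5* to the summed NFATC genes was -1.96 and -0.96 in SZCs and -2.87 and -0.55 in DZCs, so the zones overlapped.

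**Figure D4:**
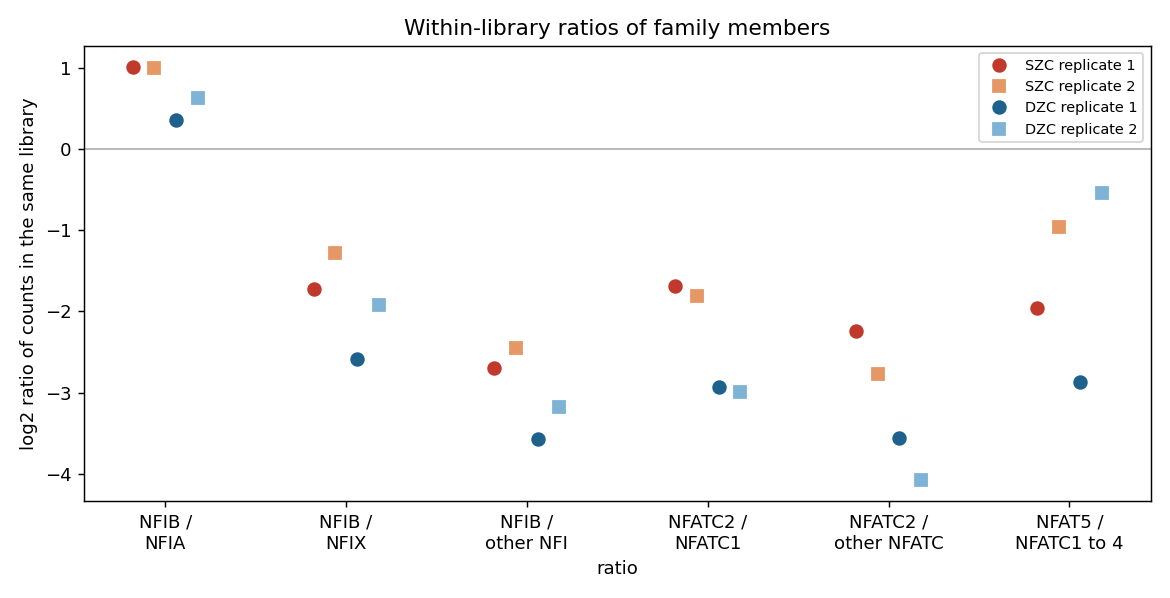
Log2 ratio of counts within each library for *NFIB* against other NFI genes, *NFATC2* against other NFATC genes, and *NFAT5* against the sum of *NFATC1* to *NFATC4*. SZC points lie above DZC points in the *NFIB* and *NFATC2* ratios and overlap with them for *NFAT5*. Only the gap between zones within a column can be read, since ratios of counts also depend on transcript lengths.

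The members also differed in how they varied between the libraries of a zone. *NFATC1*, *NFATC2* and *NFIX* were higher in replicate 1 of both zones, with replicate 2 lower by 0.60 to 0.90 in SZCs and by 0.47 to 0.61 in DZCs on the log2 scale. *NFATC3*, *NFATC4* and *NFAT5* were higher in replicate 2 of both zones, by 0.18 to 0.70 in SZCs and by 0.51 to 2.28 in DZCs. *NFIA*, *NFIB* and *NFIC* differed by at most 0.23 in either zone. The gap had the same sign in both zones for 8 of the 9 members, all but *NFIB*, and for 64.5% of the 12712 genes counted in every library. These counts describe 4 libraries, and the genes are not independent replicates. In distance between profiles over the 4 libraries, the closest pair of members was *NFIX* and *NFATC1* (0.351), followed by *NFIA* and *NFIC* (0.374), while *NFATC2* and *NFAT5* were the farthest apart (2.34). These distances are Euclidean, on log2(CPM + 0.5) with each gene centred on its own mean.

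**Figure D5:**
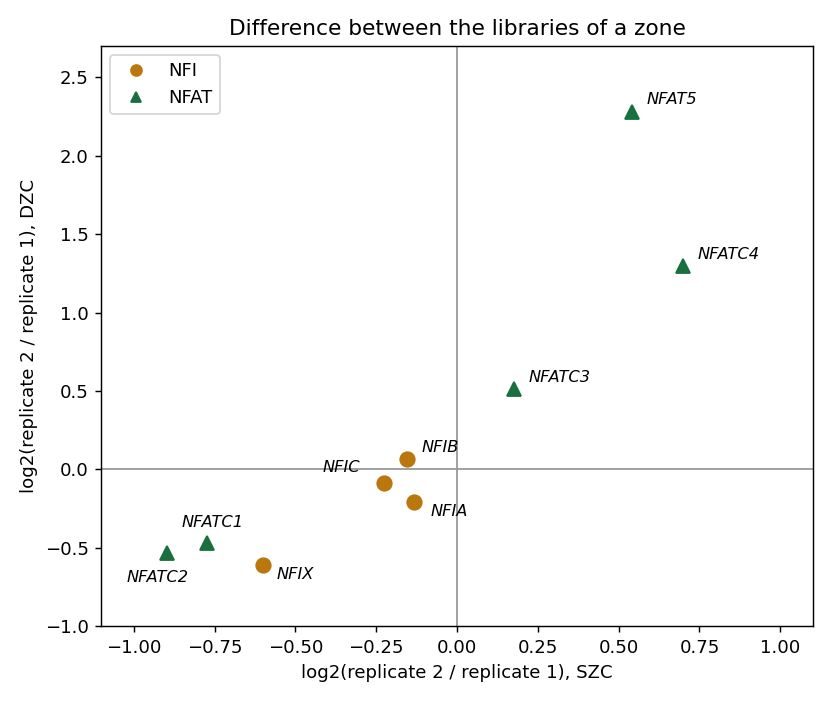
Log2 ratio of replicate 2 to replicate 1 in SZCs (horizontal) and in DZCs (vertical) for each member, from TMM-normalized CPM. *NFATC1*, *NFATC2* and *NFIX* lie below 0 on both axes and *NFATC3*, *NFATC4* and *NFAT5* above 0 on both.

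The calcineurin pathway upstream of the NFATC proteins, and listed partners and targets of both families, were then examined gene by gene. These lists were chosen with earlier results of these data known. Of 67 genes on the pathway and target lists, 58 were tested, 4 were called higher in SZCs and 0 higher in DZCs, which is 6.9% against the 2.93% of all genes. Their median log2 fold change was 0.11, against -0.04 over all genes tested, and ran from 0.032 without DZC replicate 1 to 0.36 without DZC replicate 2. Among the calcineurin subunits, 1 of 4 tested was called. This was *PPP3CA*, the alpha form of the catalytic subunit, with 146 and 110 CPM in SZCs and 44.5 and 49.8 CPM in DZCs. The difference was 1.45 ± 0.36 (log2, standard error, edgeR FDR 0.00486). The catalytic forms *PPP3CB* and *PPP3CC* had log2 fold changes of -0.23 and -0.30, and the regulatory subunit *PPP3R1* one of -0.25, with edgeR FDR values from 0.989 to 0.999. Of the 10 genes for calcium entry and release, *PLCG2* was called. It encodes a phospholipase C that produces the messenger for calcium release, and was at 32.3 and 36.1 CPM in SZCs against 4.23 and 8.43 CPM in DZCs. This is a difference of 2.43 ± 0.46 (log2, standard error, edgeR FDR 7.91e-05). *STIM1*, the calcium sensor of the endoplasmic reticulum, and the channel gene *ORAI1* had log2 fold changes of 0.23 and 0.68 and did not pass.

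Of the 6 calcineurin inhibitors and anchors, the 3 calmodulin genes and the 9 genes for NFAT kinases and nuclear export, 0 were called. *RCAN1*, a calcineurin inhibitor that is itself an NFAT target, was at 234 and 257 CPM in SZCs and 176 and 212 CPM in DZCs. The zones did not overlap, but the difference was 0.34 ± 0.36 (log2, standard error, edgeR FDR 0.968). *RCAN2* had 24 and 109 counts in SZCs and 69 and 417 in DZCs, and replicate 2 was the higher in both zones. The difference was -1.99 ± 0.94 (log2, standard error, edgeR FDR 0.535). It was -1.98 in edgeR's quasi-likelihood test with a replicate block, where *RCAN2* was called. With 1 library left out it ran from -3.39 (without SZC replicate 2) to -0.55 (without DZC replicate 2). Of the 8 NFAT partner genes tested, 0 were called. *FOS* and *JUN* encode AP-1 proteins that bind beside NFAT on DNA. *FOS* was at 162 and 44.2 CPM in SZCs and 58.8 and 57.2 CPM in DZCs, so that its log2 fold change was 0.83 with all libraries and -0.40 without SZC replicate 1. *JUN* was at 32.8 and 36.9 CPM in SZCs and 62.8 and 61.1 CPM in DZCs, with no overlap and a log2 fold change of -0.83 (edgeR FDR 0.235).

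Of the 8 genes tested that are known as NFAT targets in other cells, 2 were called higher in SZCs. *NR4A1*, an orphan nuclear receptor gene, was at 75.2 and 60.0 CPM in SZCs and 25.7 and 22.2 CPM in DZCs, a difference of 1.50 ± 0.35 (log2, standard error, edgeR FDR 0.00218). *EGR3*, a zinc finger factor gene induced soon after stimulation, had 91 and 23 counts in SZCs and 4 and 3 in DZCs. The fitted difference was 3.73 ± 1.05 (log2, standard error, edgeR FDR 0.0324) and 2.35 without SZC replicate 1, where it was not called. *IL6*, *PTGS2*, *CDK4* and *MYC* did not pass. Of the 8, 6 had a log2 fold change above 0. *PTGS2* was lower in SZCs, at 7.31 and 2.71 CPM against 7.78 and 18.3 CPM in DZCs (log2 fold change -1.38, edgeR FDR 0.581). Of the 8 genes tested among known NFI targets or partners, 0 were called, with a median log2 fold change of 0.23 that ran from 0.097 without SZC replicate 1 to 0.74 without DZC replicate 2. *ZCCHC24*, an NFIA target in glial cells, came nearest, at 7.45 and 5.47 CPM in SZCs and 1.62 and 2.60 CPM in DZCs. The fitted value of 1.60 ± 0.59 (log2, standard error) had an edgeR FDR of 0.172. The calls of *PPP3CA*, *PLCG2*, *NR4A1* and *EGR3* were lost in edgeR's quasi-likelihood test without a replicate block, with FDR values of 0.224, 0.175, 0.192 and 0.33. Without SZC replicate 1, and likewise without SZC replicate 2, 0 of the pathway and target genes were called. Without DZC replicate 1 and without DZC replicate 2, 13 and 14 were called, where 6.67% and 20.7% of all genes tested were called.

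Because *NFATC1* and *NFATC2* are abundant in osteoclasts and T cells, marker genes of these cells were examined in the same libraries. The 6 T cell genes *CD3D*, *CD3E*, *CD3G*, *CD2*, *CD4* and *CD8A* had at most 3 counts in any library, and *CD2* had 0 in all of them. The leukocyte list of 9 genes summed to 12.4 and 17.1 CPM in SZCs and 4.17 and 7.17 CPM in DZCs, most of it from *CD14*, which had 63 to 374 counts and was not called (edgeR FDR 0.142). This sum was higher in SZCs, as were *NFATC2* and *NFIB*, and its part in their differences was not tested. The osteoclast genes *OCSTAMP*, *DCSTAMP* and *CALCR* had at most 3 counts in any library. The 7 osteoclast genes summed to 471 and 488 CPM in SZCs and to 304 and 376 CPM in DZCs, nearly all from *CTSK* and *MMP9*, proteases that chondrocytes also express. *ACP5*, the acid phosphatase of osteoclasts, had the opposite order to *NFATC2*, with 1.18 and 1.25 CPM in SZCs and 3.11 and 3.77 CPM in DZCs. Of these osteoclast genes 4 were tested and 0 called, and the part of such cells in the values of *NFATC1* and *NFATC2* was not tested. The 5 endothelial genes summed to 5.32 and 10.6 CPM in SZCs and to 3.86 and 7.80 CPM in DZCs, so the zones overlapped. The 8 hypertrophic and osteoblast genes summed to 110 and 104 CPM in SZCs, 19.1 CPM in DZC replicate 1 and 270 CPM in DZC replicate 2, most of it from *SPP1*, and DZC replicate 2 alone had more than 23 counts of *MMP13*, *ALPL*, *IBSP*, *COL10A1* or *SP7*. *NFAT5* had its lowest and highest levels in the same 2 libraries as this list, and the part of such cells in its values was not tested.

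Genes whose profiles over the 4 libraries were closest to those of the called members were found by the distance given above. For *NFIB* they were *SEMA6D* (0.139), *SHROOM4* (0.164) and *FZD10* (0.168). *SEMA6D* was at 35.2 and 27.9 CPM in SZCs and 10.4 and 11.5 CPM in DZCs. *FZD10* had 3 and 6 counts in DZCs. For *NFATC2* they were *INKA2* (0.183), the gene listed as ENSBTAG00000004291 (0.189) and *OTOA* (0.234), which had 4 and 3 counts in DZCs. The distances of *FZD10* and *OTOA* depend on the added 0.5. Many other profiles were near, since 123 named genes lay within a distance of 0.5 of *NFIB* and 47 within 0.5 of *NFATC2*. *INKA2* was at 19.1 and 11.2 CPM in SZCs and 5.66 and 4.30 CPM in DZCs, with replicate 1 the higher in both zones as for *NFATC2*.

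Genes next to the members on the chromosome were taken from the order of protein-coding genes in RefSeq assembly ARS-UCD2.0, which is not the build used for counting. All 9 members were found there by symbol. Of their 18 neighbours, 12 were in the count table by name and 8 were tested. Of these 8, 0 were called by edgeR's exact test, and their log2 fold changes lay between -0.78 and 1.11. *MPDZ* beside *NFIB* had a log2 fold change of 0.39, while *KCNG1* and *ATP9A* on either side of *NFATC2* had values of -0.78 and 0.60. Reads were counted without strand, so reads from sequence that overlapping genes share cannot be told apart by strand. Overlap here is that of whole gene spans, and overlap of exons was not examined. In that assembly *NFIX* overlaps *LYL1*, which had 3 to 7 counts per library, and *NFATC3* overlaps *ESRP2*, which had 4 to 12. *NFIA* and *NFIB* each overlap an uncharacterized gene not analysed here.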

How the data were processed

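RNA-Seq libraries of SZCs and DZCs (2 per zone) were grouped by their labels. Per the paper's methods, the authors aligned 75 bp single-end reads of SMART-Seq v4 libraries with STAR 2.5.2b to Ensembl build UMD 3.1. The methods also say that reads were counted without strand. The deposited counts are unnormalized and cover 24596 genes, of which 18477 carry a name. Their deposited comparison table (log2 fold changes and FDR) was not used. ATAC-Seq data were not analysed here.

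Counts were fitted with edgeR 4.0.16 in R 4.3.3 (default filter, TMM, exact test, FDR 0.05 over 12857 genes), as the methods name TMM and that test. Standard errors follow from the gene-wise dispersion. Replicates differed beyond sampling noise (chi-square per degree of freedom 65.6 in SZCs, 313 in DZCs). The fits were tested on simulated data. Alternatives were edgeR's quasi-likelihood test with and without a replicate block, DESeq2 1.42.0, other filters and scalings, and leaving out each library. At these depths 3 counts are 0.129 to 0.187 CPM, covering counting error only.

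The members and lists were chosen with earlier results of these data known. Named genes are all members, the listed pathway genes that passed with a few others a result turns on, and the 3 nearest profiles of *NFIB* and *NFATC2*. The neighbouring genes were added after the values were seen.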

Additional observations from a re-analysis of the deposited data

How the results depend on the processing

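*NFIB* and *NFATC2* were called under 6 of the 7 alternative tests, filters and scalings with all libraries. The FDR ranged from 0.000745 to 0.162 for *NFIB* and from 0.0112 to 0.306 for *NFATC2*, and it missed the threshold in edgeR's quasi-likelihood test without a replicate block. That test called 0 genes in either zone, 0 members and 0 pathway genes, with 1126 genes and 4 members at an unadjusted p below 0.05. DESeq2 called 397 genes and the same 2 members. Adding a replicate block to the quasi-likelihood model gave 347 calls, of which 277 were shared with the exact test, the same 2 members and 5 pathway genes against 4, with *RCAN2* called higher in DZCs (-1.98). The labels do not say whether same-numbered libraries share a joint, and their deviations from the zone means had a correlation of 0.42 across genes. Scaling by library totals moved the median of all genes by 0.30 and left 44 genes higher in DZCs, with 86.7% of calls higher in SZCs against 76.1%, and all 9 members stayed above the median of all genes.

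With each library left out in turn, where the lone library of a zone is assumed to vary like the other zone, calls ranged from 58 to 2725 genes, those higher in SZCs from 52 to 1607 and those higher in DZCs from 6 to 1118. Members called ranged from 0 to 4 and pathway genes from 0 to 14. The log2 fold change turned negative for *NFATC4* without SZC replicate 2 (-0.20), and without DZC replicate 1 for *NFATC3* (-0.028, range to 0.50 without DZC replicate 2), *NFATC4* (-0.31, to 1.00) and *NFAT5* (-0.36, to 1.93). The cause was not tested. The lowest count of a member was 32, for *NFATC4* in DZC replicate 1.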
